A study of Mus musculus with 20 samples.

Results

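The 10 genes described here encode parts of MHC class I antigen presentation in the mouse: the heavy chains H2-D1, H2-K1, H2-T23 and H2-M3, the peptide loading genes Tap1, Tap2 and Tapbp, the immunoproteasome subunits Psmb8 and Psmb9, and the transactivator Nlrc5. They were taken by name, and all 10 were among the 770 genes measured. The measurements came from 20 MMC tumours, 1 per mouse, with 5 mice in each of 4 groups, and RNA was counted with nCounter probes, which tag and count transcripts without amplification. MMC is a cell line of mammary carcinoma, implanted here under the skin of transgenic mice (FVB/N-TgN(MMTV-Erbb2)NK1Mul/J) aged 6 to 8 weeks. Their Erbb2 transgene is driven by the MMTV promoter, which is active in mammary epithelium, and every group shared the strain, the transgene and the cell line. Treatment began at a tumour size of 200 to 500 mm3, after assignment by size. Each mouse received 1 of 4 agents at 5 mg/kg into the peritoneum, and all tumours carry the day 1 label.

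The anti-rHER2 ISAC group received the anti-rHER2 T785-ISAC, an immune-stimulating antibody conjugate in which an antibody against the HER2 receptor carries T785, known as an agonist of the endosomal receptors TLR7 and TLR8. The anti-rHER2 group received the anti-rHER2 antibody without T785. The isotype ISAC group received the isotype antibody joined to T785, and the isotype group received the isotype control antibody. The 4 groups allow the conjugate to be set against its antibody, its payload on a non-binding antibody, and the control antibody. Recovered counts summed to between 271793 and 508433 per tumour over the panel. The median normalized signal over all genes was 93.5 ± 11.6 in anti-rHER2 ISAC tumours, 68.8 ± 5.60 in anti-rHER2 tumours, 56.3 ± 5.10 in isotype ISAC tumours and 56.4 ± 5.68 in isotype tumours (SD, n = 5 each). The whole panel thus read higher after the conjugate, and the counts of class I genes called on the deposited scale are set below beside the same counts over the panel.

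Class I molecules show peptides from a cell's own proteins to CD8 T cells and to receptors of NK cells. The proteasome cuts proteins into peptides, and in cells exposed to interferon its catalytic subunits are replaced by Psmb8, Psmb9 and Psmb10 to form the immunoproteasome. The transporter of Tap1 and Tap2 carries the peptides into the endoplasmic reticulum, where tapasin, the product of Tapbp, holds empty class I molecules beside it. Nlrc5 acts in the nucleus on class I promoters, which also hold elements bound by interferon regulatory factors and NF-kB.

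Of the 10 genes, 9 lie on mouse chromosome 17 in the RefSeq annotation of GRCm38.p6, and Nlrc5 lies on chromosome 8. Psmb9, Tap1, Psmb8 and Tap2 are consecutive protein-coding genes there, between H2-DMb1 and H2-Ob. RefSeq promoter windows, 250 bases before to 50 bases after a start site, were at hand for 8 of the 10 genes. The stretches below are shown because they hold the letters that class I promoters are known for, and because they show how alike H2-D1 and H2-K1 are and how Tap1 and Psmb9 share 1 interval. Each sequence runs 5′ to 3′ on the strand of the gene, and capitals mark matches to the motifs spelled out after them. The reference is C57BL/6J, and FVB/N mice carry another H2 haplotype, so the alleles in these tumours may differ from it.
H2-D1, chr17:35262909-35263030, plus strand: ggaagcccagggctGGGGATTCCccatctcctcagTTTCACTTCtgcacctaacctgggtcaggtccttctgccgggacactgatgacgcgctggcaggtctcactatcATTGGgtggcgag
H2-K1, chr17:34000351-34000472, minus strand: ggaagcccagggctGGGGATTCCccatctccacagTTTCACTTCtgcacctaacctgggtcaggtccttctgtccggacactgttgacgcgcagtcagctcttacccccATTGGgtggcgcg
H2-M3, chr17:37270124-37270223, plus strand: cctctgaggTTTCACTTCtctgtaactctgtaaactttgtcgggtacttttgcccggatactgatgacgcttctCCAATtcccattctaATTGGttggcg
H2-T23, chr17:36032742-36032831, minus strand: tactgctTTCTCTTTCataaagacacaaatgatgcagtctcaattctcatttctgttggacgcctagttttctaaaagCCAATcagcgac
Tap1, chr17:34187331-34187555, plus strand, the 225 bases between the starts of Psmb9 and Tap1: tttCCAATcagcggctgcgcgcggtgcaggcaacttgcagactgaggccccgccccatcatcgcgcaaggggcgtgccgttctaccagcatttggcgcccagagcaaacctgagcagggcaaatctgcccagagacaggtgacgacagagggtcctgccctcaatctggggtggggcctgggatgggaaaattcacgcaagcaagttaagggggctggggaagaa

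The H2-D1 and H2-K1 stretches held the same base at 110 of 122 positions, or 90.2%. The 2 genes are close paralogs, whose transcripts can also share probe binding, and the probe sequences were not used here, so their separate values carry that uncertainty. Tap1 and Psmb9 are transcribed away from each other, and their windows share 275 of 300 bases. The motif GGGNNTTCC, of the kind bound by NF-kB, was found in the windows of H2-D1 and H2-K1, 2 of the 8 genes, and in 5.82% of the 32851 mouse windows searched. GAANNGAAA and GAAANNGAA are overlapping pieces of 1 interferon-stimulated response element core. GAANNGAAA was found for H2-D1, H2-K1 and H2-M3, against 7.52% of all windows, and GAAANNGAA for H2-T23, against 8.56%. CCAAT, the box bound by NF-Y, was found for 7 of the 8 genes, against 37.4% of all windows. The Tap1 and Psmb9 matches are 1 and the same site in their shared interval, so the matches are not independent of each other. TGACGTCA, the cyclic AMP response element, and TGACGCA matched none of the 8 and 1.79% and 2.12% of all windows. Each of these motifs was searched on both strands, and a match says only that the letters occur.

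H2-D1, a classical heavy chain that presents peptides to CD8 T cells, read 7284, 4789.5, 6939, 4421 and 5524 in anti-rHER2 ISAC tumours 1 to 5, and 4244, 2909, 3238, 4343 and 3795 in anti-rHER2 tumours 1 to 5. H2-D1 read 2140.2, 2959, 3769, 2677 and 2787 in isotype ISAC tumours, and 4237, 2511, 4285, 2338 and 2737 in isotype tumours. All 5 anti-rHER2 ISAC tumours stood above the highest tumour of every other group, and tumours 1 and 3 were the highest. On the log2(signal + 1) scale H2-D1 was 0.87 ± 0.20 (SE) higher in anti-rHER2 ISAC than in isotype tumours (fold 1.83, adjusted p = 0.00176), a limma fit with Benjamini-Hochberg adjustment over 770 genes that underlies every adjusted p below unless another test is named. The difference was 0.63 ± 0.20 against anti-rHER2 (adjusted p = 0.0323) and 1.01 ± 0.20 against isotype ISAC (adjusted p = 0.000585). In RNA of whole tumours, more cells that express a gene and more RNA of it per cell cannot be told apart, for this and every gene that follows.

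H2-K1, the other classical heavy chain measured, read 5963, 4198, 6248, 3160.2 and 4152 in anti-rHER2 ISAC tumours 1 to 5, and 3814, 2695, 2256, 3604 and 2744 in anti-rHER2 tumours 1 to 5. H2-K1 read 2089, 3232, 3871, 2230.1 and 2469 in isotype ISAC tumours, and 3929, 2521, 4373, 1894 and 2502 in isotype tumours. The anti-rHER2 ISAC values ran wide, and tumours 2, 4 and 5 fell within the range of the isotype tumours. H2-K1 was 0.66 ± 0.25 higher than in isotype tumours (fold 1.58, adjusted p = 0.0353) and 0.77 ± 0.25 higher than in isotype ISAC tumours (adjusted p = 0.0186). Leaving out anti-rHER2 ISAC tumour 1 or 3, or isotype tumour 2, 4 or 5, ended the first call, where the adjusted p ranged from 0.0133 to 0.113 over the 10 tumours left out in turn. Against anti-rHER2 the difference was 0.63 ± 0.25 with a 95% interval of 0.11 to 1.15 (adjusted p = 0.0773).

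H2-T23, which encodes the non-classical molecule Qa-1, the ligand of the NK receptor pair CD94 and NKG2A, read 475, 364, 489, 416 and 458 in anti-rHER2 ISAC tumours 1 to 5, and 461, 332, 340.1, 378 and 403 in anti-rHER2 tumours 1 to 5. H2-T23 read 220.1, 337, 299, 394 and 269 in isotype ISAC tumours, and 385, 312, 439.5, 309.8 and 277 in isotype tumours. The 4 groups overlapped, and H2-T23 had the smallest difference of the 10 genes from isotype tumours, 0.37 ± 0.16 with a 95% interval of 0.04 to 0.69 (adjusted p = 0.0671). It passed the test against isotype ISAC tumours, at 0.55 ± 0.16 (adjusted p = 0.00825). Against anti-rHER2 it stood at 0.21 ± 0.16, with an interval of -0.12 to 0.53 (adjusted p = 0.414).

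H2-M3, which presents N-formylated peptides such as those of bacteria and mitochondria, read 128, 81.3, 155, 90.8 and 79.6 in anti-rHER2 ISAC tumours 1 to 5, and 76.3, 72.5, 68.5, 87.8 and 103 in anti-rHER2 tumours 1 to 5. H2-M3 read 44.0, 51.1, 66.7, 75.7 and 47.7 in isotype ISAC tumours, and 77.2, 44.1, 105, 74.5 and 63.1 in isotype tumours. Anti-rHER2 ISAC tumours 1 and 3 were the highest of all 20, and tumours 2, 4 and 5 lay among the isotype and anti-rHER2 values. The difference from isotype tumours was 0.55 ± 0.23 (adjusted p = 0.0549), that from anti-rHER2 0.35 ± 0.23 (adjusted p = 0.318), and that from isotype ISAC 0.87 ± 0.23 (adjusted p = 0.00460), so only the last passed.

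**Figure D1:**
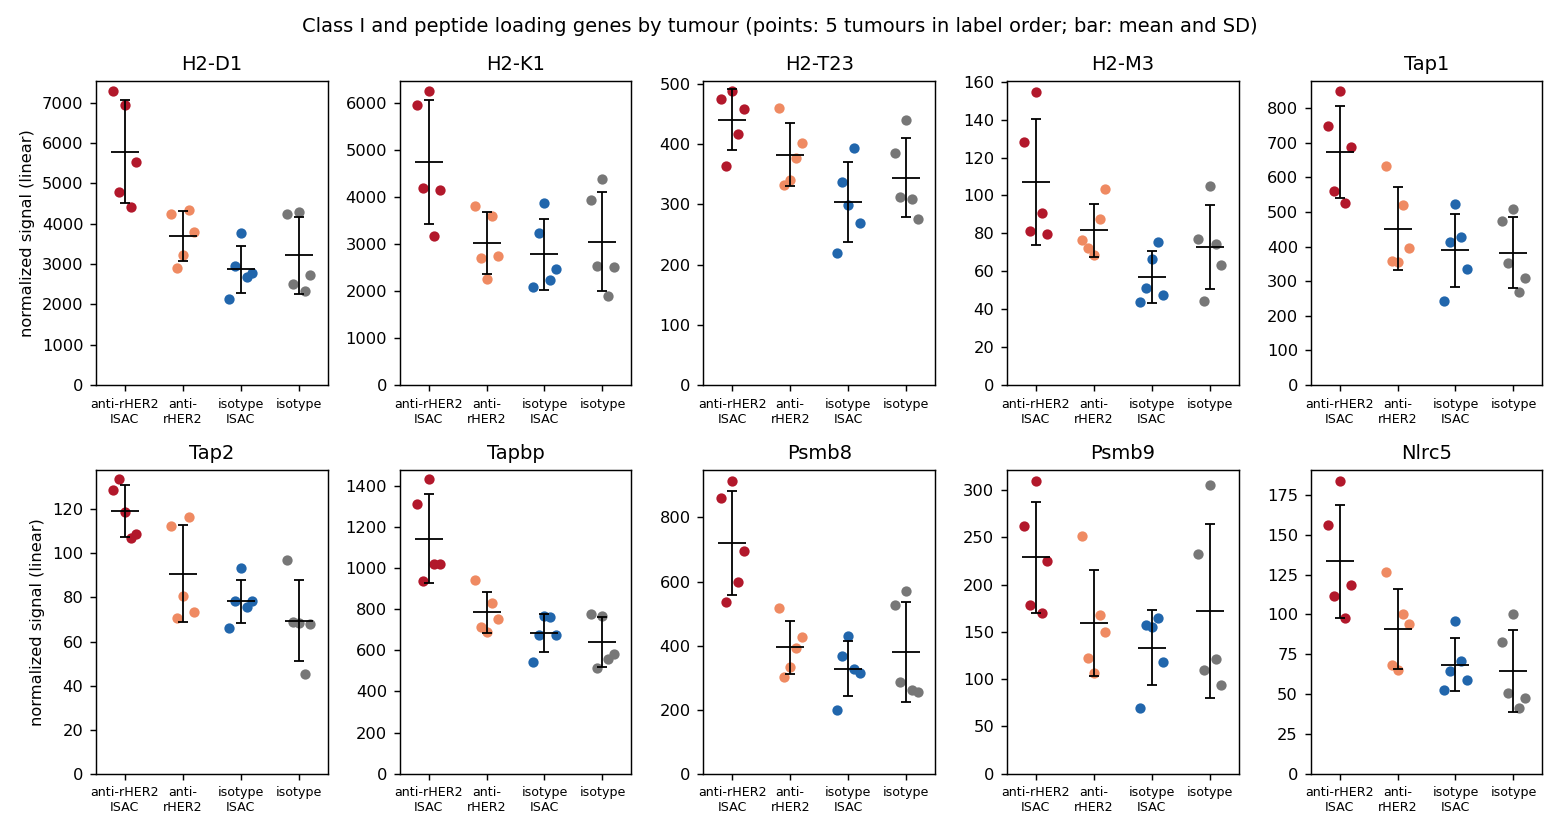
Normalized signal (linear, y axis from 0) of the 10 genes in each of 20 tumours, with anti-rHER2 ISAC, anti-rHER2, isotype ISAC and isotype from left to right. Points are tumours in label order, and the bars show the mean and SD of 5 tumours. In H2-D1 every anti-rHER2 ISAC point, from 4421 upward, lies above all 15 others, whereas in H2-T23 and Psmb9 the anti-rHER2 ISAC points overlap those of isotype tumours.

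Tap1, 1 of the 2 chains of the peptide transporter, read 748, 560.0, 848, 525 and 688 in anti-rHER2 ISAC tumours 1 to 5, and 632, 359, 354, 519.8 and 395 in anti-rHER2 tumours 1 to 5. Tap1 read 244, 413, 524, 427 and 336 in isotype ISAC tumours, and 474, 352, 508, 269.9 and 311 in isotype tumours. Each anti-rHER2 ISAC tumour exceeded all isotype and isotype ISAC tumours, while anti-rHER2 tumour 1 reached into their range. Tap1 was 0.83 ± 0.23 higher than in isotype tumours (fold 1.78, adjusted p = 0.00551) and 0.81 ± 0.23 higher than in isotype ISAC tumours (adjusted p = 0.00717). Against anti-rHER2 it stood at 0.59 ± 0.23, interval 0.12 to 1.06 (adjusted p = 0.0700), and passed the test only without anti-rHER2 tumour 1.

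Tap2, the second chain of the transporter, read 129, 134, 119, 107 and 109 in anti-rHER2 ISAC tumours 1 to 5, and 113, 70.5, 80.9, 116 and 73.6 in anti-rHER2 tumours 1 to 5. Tap2 read 66.0, 78.3, 93.2, 75.7 and 78.3 in isotype ISAC tumours, and 96.9, 69.0, 68.4, 45.2 and 68.0 in isotype tumours. The anti-rHER2 ISAC values were the tightest of the 4 groups relative to their mean, 119 ± 11.9 (SD, n = 5), and none overlapped the isotype or isotype ISAC tumours. The difference from isotype tumours was 0.81 ± 0.18 (fold 1.75, adjusted p = 0.00103), and that from isotype ISAC was 0.60 ± 0.18 (adjusted p = 0.00992). Against anti-rHER2 it was 0.42 ± 0.18, interval 0.05 to 0.79 (adjusted p = 0.105).

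Tapbp, which encodes the loading chaperone tapasin, read 1309, 937, 1432, 1019 and 1021 in anti-rHER2 ISAC tumours 1 to 5, and 939.6, 715, 688, 828 and 749.9 in anti-rHER2 tumours 1 to 5. Tapbp read 542, 672, 765, 764 and 675 in isotype ISAC tumours, and 778, 513, 768, 559.7 and 582 in isotype tumours. The lowest anti-rHER2 ISAC tumour read 937, against a highest value of 778 in isotype tumours, 765 in isotype ISAC tumours and 939.6 in anti-rHER2 tumours. Tapbp passed the test in all 3 comparisons of the conjugate, by 0.84 ± 0.15 against isotype (fold 1.79, adjusted p = 0.000194), 0.53 ± 0.15 against anti-rHER2 (adjusted p = 0.0160) and 0.73 ± 0.15 against isotype ISAC (adjusted p = 0.000759). The call against anti-rHER2 was lost without anti-rHER2 ISAC tumour 1 or 3.

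Psmb8, a catalytic subunit of the immunoproteasome, read 860.5, 535, 913, 599 and 696 in anti-rHER2 ISAC tumours 1 to 5, and 516, 303, 334, 393 and 426 in anti-rHER2 tumours 1 to 5. Psmb8 read 198, 369, 430.0, 328 and 313 in isotype ISAC tumours, and 527, 285, 570.3, 262 and 255 in isotype tumours. No anti-rHER2 ISAC tumour overlapped the anti-rHER2 or isotype ISAC tumours, and tumour 2 fell below isotype tumour 3. Psmb8 had the largest of the 10 differences from anti-rHER2, 0.86 ± 0.25 (fold 1.82, adjusted p = 0.0208), and from isotype ISAC, 1.15 ± 0.25 (fold 2.22, adjusted p = 0.00132). It was 0.98 ± 0.25 higher than in isotype tumours (fold 1.98, adjusted p = 0.00391). Without anti-rHER2 ISAC tumour 1 or 3 or anti-rHER2 tumour 2, the call against anti-rHER2 was lost.

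Psmb9, the subunit whose gene shares its start interval with Tap1, read 262, 178, 309.5, 169.6 and 225 in anti-rHER2 ISAC tumours 1 to 5, and 251, 122, 106, 168 and 149.7 in anti-rHER2 tumours 1 to 5. Psmb9 read 69.8, 158, 156, 164 and 119 in isotype ISAC tumours, and 232, 109, 305, 121 and 94.2 in isotype tumours. Isotype tumours 1 and 3 lay among the anti-rHER2 ISAC tumours, and the isotype SD of 92.2 was the largest of the 4 groups. Psmb9 was the member that passed no test: the difference was 0.52 ± 0.32 against isotype, interval -0.15 to 1.20 (adjusted p = 0.209), 0.55 ± 0.32 against anti-rHER2 (adjusted p = 0.266) and 0.80 ± 0.32 against isotype ISAC (adjusted p = 0.0560). The anti-rHER2 ISAC and isotype ISAC tumours nevertheless did not overlap in Psmb9, and that call was gained without anti-rHER2 ISAC tumour 4.

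Nlrc5, the transactivator of class I genes, read 156, 111, 184, 97.5 and 119 in anti-rHER2 ISAC tumours 1 to 5, and 127, 68.5, 65.2, 101 and 94.2 in anti-rHER2 tumours 1 to 5. Nlrc5 read 52.6, 64.7, 95.8, 71.0 and 58.7 in isotype ISAC tumours, and 82.8, 50.8, 100.2, 41.2 and 47.6 in isotype tumours. Isotype tumours 1 and 3 were again the highest of their group, and tumour 3 read above the lowest anti-rHER2 ISAC tumour. Nlrc5 had the largest difference of the 10 genes from isotype tumours, 1.08 ± 0.25 (fold 2.12, adjusted p = 0.00177), and stood 0.94 ± 0.25 higher than in isotype ISAC tumours (adjusted p = 0.00584). Against anti-rHER2 the difference was 0.55 ± 0.25, interval 0.02 to 1.08 (adjusted p = 0.141).

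Counted together, 7 of the 10 genes were higher in anti-rHER2 ISAC than in isotype tumours and none was lower on the deposited scale, but 4 and 5 were higher after median-ratio and quantile scaling (155 and 130 of the 770) and 0 after equal medians (92 of the 770), where H2-T23 was lower. The 3 genes not called on the deposited scale were H2-T23, H2-M3 and Psmb9. Over the panel 307 of 770 genes were called higher, or 39.9%, and 36 lower. The median log2 fold change was 0.82 over the 10 genes and 0.36 over all 770. The groups did not overlap in 4 of the 10 genes (H2-D1, Tap1, Tap2 and Tapbp), against 28.6% of the panel.

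Against anti-rHER2, 3 of 10 genes were called higher (H2-D1, Tapbp and Psmb8), against 19.6% of the panel, with a median of 0.55 over the 10 and 0.16 over all genes, and with 1, 4 and 0 called after median-ratio, quantile and equal-median scaling (87, 80 and 61 of the 770). H2-D1 and Psmb8 were the 2 genes without overlap, against 12.5% of the panel. The count fell to 0 without anti-rHER2 ISAC tumour 1 or tumour 3 (105 and 111 of the 770). It was 1 without anti-rHER2 tumour 2 (108 of the 770). With any single tumour left out it was at most 4, while the panel count ran between 105 and 168. The H2-D1 call was lost in 6 of these 10 repeats: without anti-rHER2 ISAC tumour 1, 3 or 5 and without anti-rHER2 tumour 2, 3 or 5.

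Against isotype ISAC, the same payload on an antibody that does not bind the receptor, 9 of 10 genes were called higher, all but Psmb9, against 36% of the panel. The median was 0.81 over the 10 genes and 0.29 over all, and these 3 scalings called 5, 4 and 0 in the same order (164, 113 and 79 of the 770). Groups did not overlap in 8 of 10, the exceptions being H2-K1 and H2-T23, against 24.7% of the panel. The H2-K1 call was lost without anti-rHER2 ISAC tumour 1 or 3 or isotype ISAC tumour 1. These 3 comparisons share the 5 anti-rHER2 ISAC tumours, so their counts are not independent of each other.

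Neither single component passed the test for any of the 10 genes. In anti-rHER2 against isotype tumours the differences ran between -0.02 (Psmb9) and 0.53 (Nlrc5, 95% interval 0.00 to 1.06, adjusted p = 0.206), with a median of 0.22. Tap2, at 0.39 ± 0.18 (adjusted p = 0.183), and Nlrc5 were the 2 genes with an unadjusted p under 0.05 by limma, against 186 of 770 over the panel, and edgeR called 0 of 10. Over the panel 68 genes, or 8.83%, were called higher in this comparison. The interval for H2-K1 ran between -0.49 and 0.55, so with 5 tumours a group a change of up to about that size in either direction was not excluded.

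In isotype ISAC against isotype tumours, which share the isotype tumours with the comparison before, the 10 differences lay between -0.32 (H2-M3, interval -0.79 to 0.15) and 0.20 (Tap2, interval -0.17 to 0.57), with a median of -0.12. None of the 10 had an unadjusted p under 0.05 by limma. No gene of the panel was called, or 0%, while 47 of 770 had an unadjusted p under 0.05, and edgeR also called 0 genes.

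The interaction asks whether T785 changed a gene more on the receptor-binding antibody than on the isotype antibody. The deposited values gave estimates above 0 for all 10 genes, between 0.22 (Tap2) and 1.03 (Psmb8), with a median of 0.62 against 0.11 over the panel, but none passed by limma, where 53 genes of the panel, or 6.88%, were called higher. Tap2's estimate turned to -0.16 under quantile normalization and -0.22 with equal medians of all genes, where H2-T23, Tapbp and Nlrc5 lay between -0.04 and -0.01. Psmb8 came closest at 1.03 ± 0.36 (95% interval 0.28 to 1.78, adjusted p = 0.105). H2-D1 followed at 0.78 ± 0.29 (adjusted p = 0.130). At an unadjusted p under 0.05, limma gave 3 of the 10 and 158 of the 770. Of the 10, edgeR called Psmb8 alone (adjusted p = 0.0446), with 58 of the 770 called higher.

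**Figure D2:**
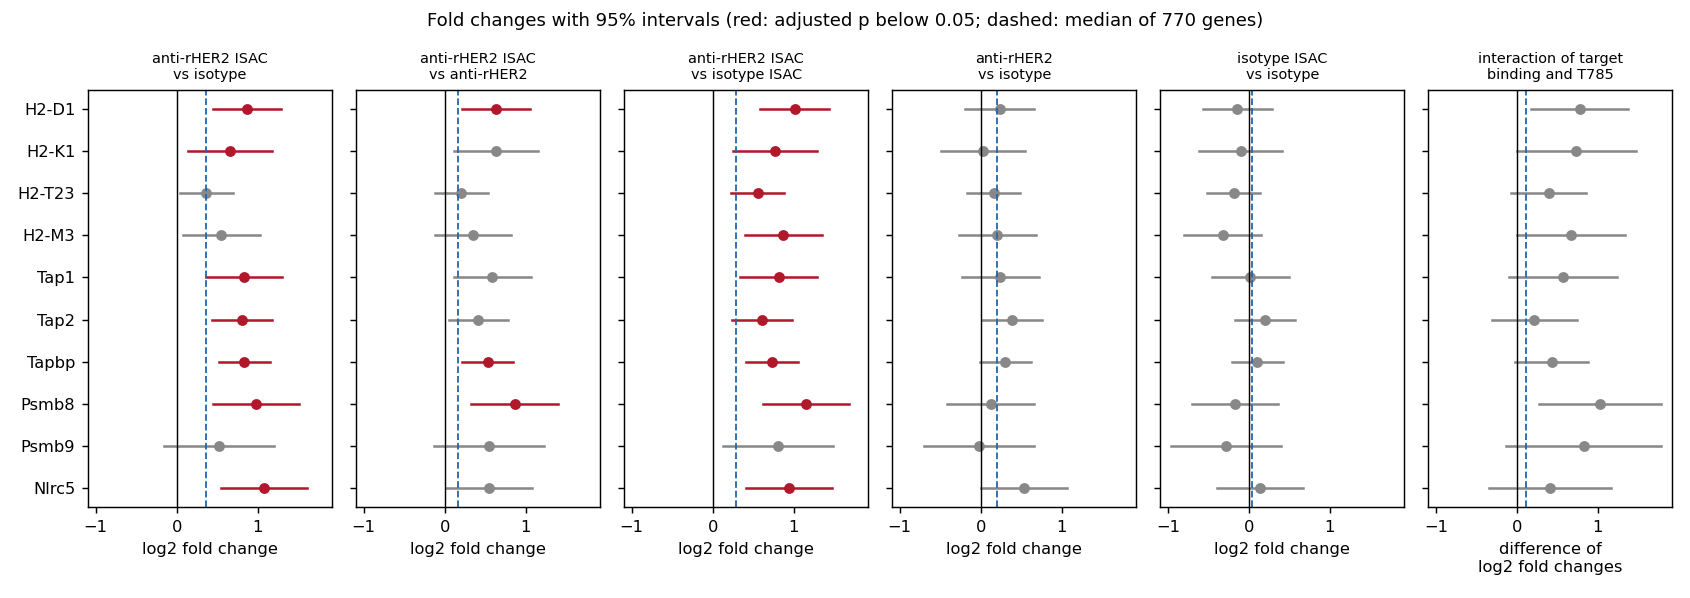
Log2 fold change (x axis, on the log2(signal + 1) scale) with its 95% interval for each of the 10 genes in the 6 comparisons, the last panel being the interaction. Red points have an adjusted p below 0.05, and the dashed line is the median of all 770 genes. Red points number 7, 3, 9, 0, 0 and 0 from left to right. Under other scalings of the tumours H2-K1, H2-T23, H2-M3, Tap2 and Psmb9 turn below 0 in at least 1 of the 3 panels of the conjugate.

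The size of these differences depended on how the tumours were put on 1 scale, since the panel as a whole read higher after the conjugate. The deposited values hold the geometric mean of 20 reference genes equal between tumours. Repeating that step therefore could not change a call and is no check. Of these 20 genes, 6 were themselves called higher and 7 lower in anti-rHER2 ISAC than in isotype tumours. They ran between -0.54 (Rpl19) and 0.67 (Sap130), with a median of -0.05. Over the panel 307 of the 770 were called higher and 36 lower. When all tumours were instead set to equal medians over the 770 genes, no class I gene was called higher in any comparison. H2-T23 was then called lower in anti-rHER2 ISAC than in isotype tumours, at -0.36 (adjusted p = 0.0314), where 277 of the 770 were called lower. This scaling moved the panel median against isotype tumours to -0.30, against 0.36 as deposited, and the median of the 10 genes to 0.10. Median-ratio scaling put the panel median at -0.02 and the median of the 10 genes at 0.41, with 4 called higher (H2-D1, Tapbp, Psmb8 and Nlrc5). Quantile normalization gave -0.09 for the panel and 0.46 for the 10 genes, with 5 called (H2-D1, H2-K1, Tap1, Tapbp and Psmb8). Scalings that multiply a tumour by 1 factor shift the 10 genes and the panel together, so the gap between their medians could hardly change. Quantile normalization can change that gap, and there too the median of the 10 genes stood above that of the panel. H2-D1, Tap1, Tap2, Tapbp, Psmb8 and Nlrc5 kept a positive difference from isotype tumours under each of them, whereas H2-K1, H2-T23, H2-M3 and Psmb9 turned below 0 under at least 1.

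**Figure D3:**
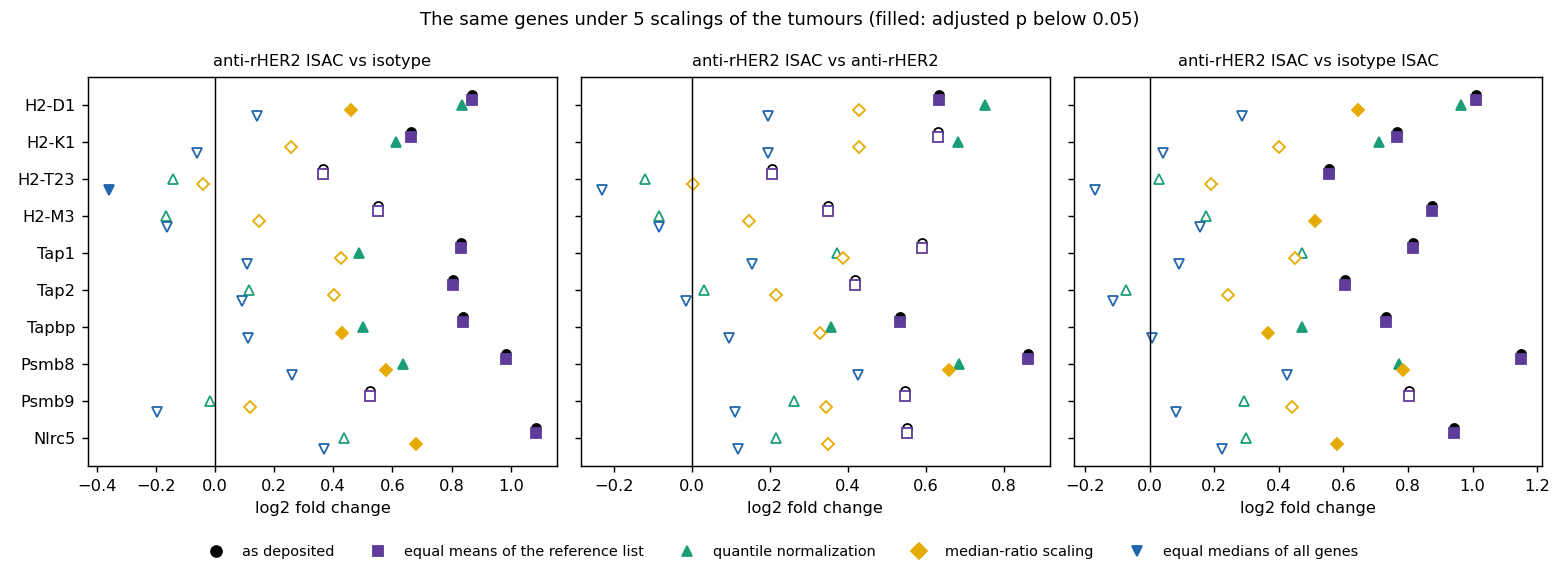
Log2 fold change (x axis) of the 10 genes in the 3 comparisons of the anti-rHER2 ISAC under 5 scalings of the tumours, each a symbol of its own. Filled symbols have an adjusted p below 0.05. Equal means of the reference list repeats the deposited scaling, so its symbols are no separate check. With equal medians of all genes 1 symbol is filled, H2-T23 at -0.36 against isotype, while as deposited 7, 3 and 9 are filled.

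A ratio of 2 genes within a tumour is the same under any scaling that multiplies a tumour by 1 factor, which quantile normalization does not. These ratios were added after the values had been seen, and each group pair was compared with an exact 2-sided permutation test, whose smallest possible p with 5 against 5 tumours is 0.00794. The immunoproteasome subunits Psmb8, Psmb9 and Psmb10 were set over Psmb7, the constitutive subunit that Psmb10 replaces. The log2 ratio of Psmb8 to Psmb7 was -0.09, -0.64, 0.13, -0.49 and -0.31 in anti-rHER2 ISAC tumours 1 to 5 and -0.90, -1.74, -1.52, -1.18 and -1.29 in anti-rHER2 tumours. It was -2.43, -1.58, -1.25, -1.65 and -1.76 in isotype ISAC tumours and -1.004, -1.82, -1.26, -2.23 and -2.14 in isotype tumours. Every anti-rHER2 ISAC tumour stood above every tumour of the 3 other groups. The mean was -0.28 ± 0.31 in anti-rHER2 ISAC tumours, -1.33 ± 0.32 in anti-rHER2 tumours, -1.74 ± 0.43 in isotype ISAC tumours and -1.69 ± 0.54 in isotype tumours (SD, n = 5 each).

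All 3 ratios to Psmb7 were higher in anti-rHER2 ISAC tumours than in each other group. Against isotype tumours the difference was 1.41 for Psmb8 and 1.21 for Psmb10 (adjusted p = 0.0119 for both by the exact permutation test, adjusted over the 3 ratios), and 0.95 for Psmb9 (adjusted p = 0.0476). Against anti-rHER2 the differences were 1.04 for Psmb8 (adjusted p = 0.0238), 0.73 for Psmb9 and 0.66 for Psmb10 (adjusted p = 0.0397 for both, exact permutation). Neither anti-rHER2 nor isotype ISAC tumours differed from isotype tumours in any of the 3 ratios beyond the threshold. Part of each difference came from the denominator: Psmb7 itself was 0.42 ± 0.09 lower in anti-rHER2 ISAC than in isotype tumours (adjusted p = 0.000636). The median panel gene was 0.36 higher in that comparison. Other panel genes were not set over Psmb7, so whether the rise is particular to these subunits was not tested.

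**Figure D4:**
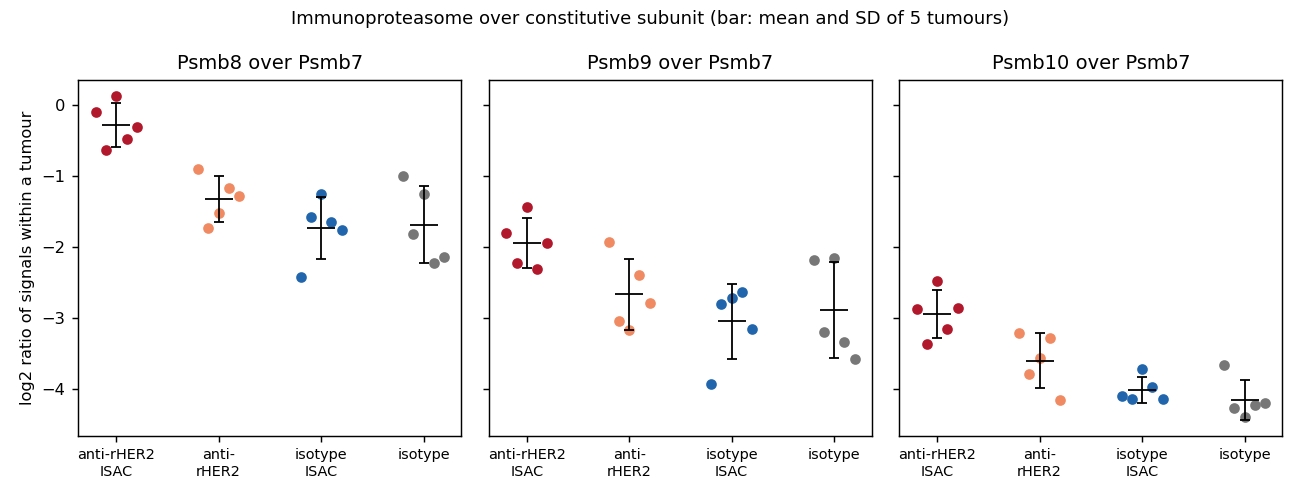
Log2 ratio of the signals of Psmb8, Psmb9 and Psmb10 to that of Psmb7 within each tumour (y axis), by group, with anti-rHER2 ISAC leftmost and isotype rightmost. Points are tumours and bars the mean and SD of 5 tumours. For Psmb8 the anti-rHER2 ISAC tumours average -0.28 and lie above all others, and for Psmb9 they overlap isotype and anti-rHER2 tumours.

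Set over Ptprc, which encodes the leukocyte antigen CD45, 7 of the 10 genes were lower in anti-rHER2 ISAC than in isotype tumours (median difference -0.49), the exceptions being Tap2, Psmb8 and Nlrc5. All 10 were lower than in isotype ISAC tumours (median -0.75), and 0 of 10 passed against anti-rHER2, where the median was -0.27 and 2 had an unadjusted exact permutation p under 0.05. Ptprc thus rose by more than most class I genes: its own difference from isotype tumours was 1.32 ± 0.15 (adjusted p = 1.13e-06). Set over Epcam, an epithelial surface protein of carcinoma cells, 9 of 10 were higher than in isotype tumours (median 1.06, the exception being Psmb9) and 10 of 10 higher than in isotype ISAC tumours (median 1.02). Against anti-rHER2 the median was 0.65 and none passed, with 3 at an unadjusted exact permutation p under 0.05. Set over H2-Ab1, a class II chain, all 10 were higher in each of the 3 comparisons, by medians of 2.08, 1.86 and 1.79. Much of this came from the denominator: H2-Ab1 itself was 1.25 ± 0.21 lower than in isotype tumours (adjusted p = 7.45e-05, limma). The rest of the panel was not set over Ptprc, Epcam, H2-Ab1 or Psmb7, so no panel share stands beside these counts.

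Among the 10 genes themselves, 45 ratios of pairs were compared, and none passed after adjustment in any of the 5 group comparisons. With a smallest possible p of 0.00794 no pair can pass alone, since at least 8 of the 45 must pass together, so the absence of calls says little. In anti-rHER2 ISAC against isotype tumours 7 pairs were at that smallest p (adjusted p = 0.0510, exact permutation), and 13 had an unadjusted p under 0.05. The widest of these involved H2-T23, whose log2 ratio to Nlrc5 was 1.75 ± 0.27 in anti-rHER2 ISAC tumours and 2.48 ± 0.32 in isotype tumours (SD, n = 5 each). Psmb8 over Psmb9 was 1.66 ± 0.11 in anti-rHER2 ISAC tumours and 1.20 ± 0.22 in isotype tumours (SD, n = 5 each), without overlap, and H2-K1 over Nlrc5 was 5.14 ± 0.10 in anti-rHER2 ISAC and 5.58 ± 0.10 in isotype tumours.

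Within groups the 10 genes were high or low in the same tumours. After the group means were subtracted, the 45 pairs had a median Pearson r of 0.81 over 20 tumours, between 0.12 (H2-M3 and Tap2) and 0.95 (Psmb8 and Psmb9), and 43 exceeded 0.5. The median over all pairs of panel genes was 0.08. Averaged over the 10 genes in units of their residual SD, anti-rHER2 ISAC tumours 1 and 3 stood at 0.69 and 0.96 and anti-rHER2 tumour 1 at 0.98. Isotype tumours 1 and 3 stood at 1.11 and 1.36, and isotype ISAC tumour 1 at -1.28 was the lowest of all. Tap2 followed the others least, with r of 0.35 to H2-T23. The points share the panel scaling: this average had r = 0.82 with the log2 median signal of the tumour and 0.10 with its total count. With equal medians the median pair r was 0.63, the range -0.34 to 0.92, and 28 pairs exceeded 0.5.

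**Figure D5:**
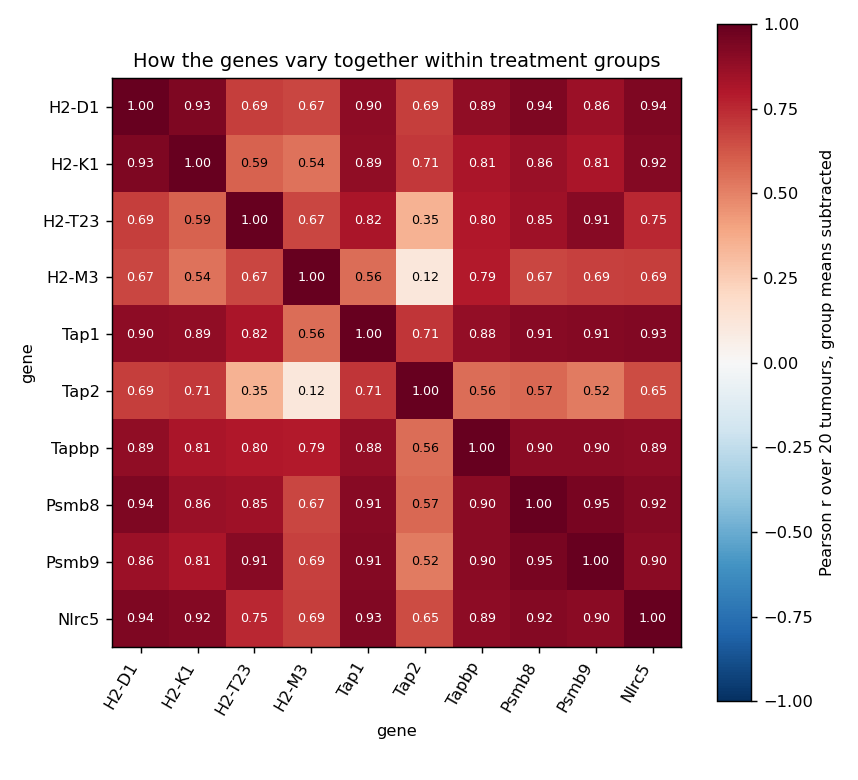
Pearson r between the 10 genes over 20 tumours after subtracting group means (colour scale from -1 to 1, each cell printed). Values lie between 0.12 and 0.95, and the palest row and column are those of Tap2.

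Among the other genes that varied most like the average of the 10 within groups were Zbp1 (r = 0.89), a sensor of Z-form nucleic acid, Cd200r1 (0.86), a myeloid inhibitory receptor, Cxcr6 (0.86), a chemokine receptor of T and NK cells, and Cd180 (0.85), a TLR-like receptor of B cells and macrophages. With equal medians Cxcr6, Zbp1, Cxcl11 and Itga4 were among the first. Irf1 had r = 0.75, Ptprc 0.66, Ifng 0.08 (at 1 to 10 counts per tumour), Epcam -0.27 and Erbb2 -0.32. These values describe 20 tumours with the group means removed and carry no test.

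Of 29 listed other genes of the class I route, 9 were measured, and B2m, the light chain of every class I molecule, was not among them. Against isotype tumours 3 of the 9 were higher after the conjugate, against 39.9% of the panel, and 1 lower, with a median of 0.20. The count turned with the scaling. With equal medians of all genes it was 0 higher and 4 lower (median -0.37), against 92 and 277 of the 770. It was 1 and 2 with median-ratio scaling (155 and 143 of the 770) and 0 and 3 under quantile normalization (130 and 182 of the 770). Psmb10, the third immunoproteasome subunit, read 125, 80.5, 149.6, 94.2 and 119 in anti-rHER2 ISAC tumours, against 82.8, 51.7, 64.8, 65.1 and 61.2 in isotype tumours, a difference of 0.78 ± 0.17 (adjusted p = 0.00117). Mr1, which presents vitamin B metabolites, was 0.35 ± 0.09 higher (adjusted p = 0.00500), and H2-Q2 0.80 ± 0.28 higher (adjusted p = 0.0289) at signals of at most 4.28 in anti-rHER2 ISAC and 2.66 in isotype tumours, near the floor of 1. Psmb7 was the gene that fell. The 5 others were not called: H2-Q10 at 0.62, Cd1d1 at 0.20, Cd1d2 at 0.17, Psmd7 at -0.28 and H2-Q1 at -0.36. H2-Q10, Cd1d2 and H2-Q1 did not exceed 12, 4 and 5 counts in anti-rHER2 ISAC or isotype tumours. Psmb10 stayed above 0 under the other scalings (0.06 to 0.37), whereas Mr1 turned to -0.37 with equal medians of all genes (adjusted p = 0.0308). Against anti-rHER2 none of the 9 passed, and against isotype ISAC Psmb10 (0.76 ± 0.17) and Mr1 (0.47 ± 0.09) were higher and Psmb7 (-0.30 ± 0.09) lower. Over the panel 19.6% were called higher against anti-rHER2. Against isotype ISAC 36% were higher and 30 of the 770 lower. With equal medians the 9 gave 0 higher and 3 lower against anti-rHER2, where the panel gave 61 and 188. They gave 0 and 2 against isotype ISAC, where the panel gave 79 and 301.

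Of 15 genes of the interferon route, 9 were higher than in isotype tumours and none lower, where 39.9% of the panel was higher. Irf7, which drives type I interferon genes, had the largest difference, 1.33 ± 0.26 (adjusted p = 0.000368). Ifng stood at 1.09 ± 0.33 (adjusted p = 0.0120), near the floor, with 3 to 10 counts in anti-rHER2 ISAC and 1 to 4 in isotype tumours. Irf1 stood at 0.21 ± 0.15 (adjusted p = 0.286), Irf8 at 0.06 and Irf3, the smallest, at -0.22. Of 10 genes of the NF-kB route 5 were higher, near the 39.9% of the panel, and none lower, led by Tlr8 (1.64) and Nfkbia (1.05), with Tnfrsf1a (0.14) and Relb (0.00) at the other end. Both counts depend on the scaling: with equal medians of all genes 1 interferon gene was higher and 9 lower, and 1 NF-kB gene was higher and 3 lower. Over the panel that scaling gave 92 of the 770 higher and 277 lower. Median-ratio scaling left 3 higher and 3 lower in the interferon route (155 and 143 of the 770), with Irf7 (0.93) among those higher.

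Of 10 class II genes measured, none was higher and 4 were lower than in isotype tumours, with a median of -0.45, where 36 of the 770 genes were lower. With equal medians 9 were lower (277 of the 770), with median-ratio scaling 6 (143 of the 770) and under quantile normalization 8 (182 of the 770), and none was higher. H2-Ab1 was 1.25 ± 0.21 lower (adjusted p = 7.45e-05), with 1006 ± 212 in anti-rHER2 ISAC tumours and 2417 ± 585 in isotype tumours (SD, n = 5 each). H2-Aa stood at -0.72 ± 0.23 (adjusted p = 0.0137). The other called genes, Cd74 (-0.50) and Ciita (-0.40), were named after their values were seen. H2-DMb1 (0.31, at 1 to 5 counts in anti-rHER2 ISAC and 1 to 3 in isotype tumours) and H2-Dma (0.18) had the highest values. Of 20 genes for receptors that read class I molecules, 4 were higher, a smaller share than the 39.9% of the panel, and none lower. Klra17 (2.09) and Klra2 (1.17) led, and Lilra5 (-0.53) and Klra6 (-0.47, at no more than 5 counts in any tumour) were the smallest. Equal medians of all genes gave 1 higher and 4 lower, against 92 and 277 of the 770. Cd8a, part of the co-receptor of class I restricted T cells, stood at 0.07 ± 0.36 (adjusted p = 0.886). It too was low, with 2 to 10 counts in anti-rHER2 ISAC and 2 to 7 in isotype tumours.

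Markers of other cells moved with the groups. The summed signal of 14 leukocyte markers had its lowest, median and highest value at 3882, 5329 and 6597 in anti-rHER2 ISAC tumours, at 2824, 3230 and 3422 in anti-rHER2 tumours, at 1924, 2189 and 2367 in isotype ISAC tumours and at 1619, 2138 and 2301 in isotype tumours. Against isotype tumours 7 of the 14 were higher and none lower, against 39.9% of the panel higher, led by S100a8 (5.24) and Cxcr2 (4.70), which neutrophils express, with Cd14 at 0.09 at the lower end. The other scalings also gave 7 higher, against 92 of the 770 with equal medians of all genes, 155 with median-ratio scaling and 130 under quantile normalization. Equal medians of all genes gave 3 lower, against 277 of the 770. Ms4a1, a B cell marker, did not exceed 3 counts in any isotype tumour. The sum of 4 epithelial markers spanned 7030 to 9560 in anti-rHER2 ISAC tumours, with a median of 8949, and 8208 to 9140 in isotype tumours, with a median of 8769. Muc1 (1.01 ± 0.15) and Erbb2 (0.50 ± 0.13) were higher, Cdh1 stood at 0.11 and Epcam at -0.23 ± 0.11 (adjusted p = 0.0873), and Erbb2 turned to -0.22 with equal medians of all genes. Of these 4 markers, equal medians gave none higher and 2 lower, median-ratio scaling 1 higher and 2 lower, and quantile normalization none in either direction. In that order the scalings called 277, 143 and 182 of the 770 lower. Epithelial markers were thus present in the tumours of both groups. Of 9 stromal and vessel markers, 7 were higher, against 39.9% of the panel, led by Eng (0.97) and Fn1 (0.87), with Kdr (0.40) and Col3a1 (0.19) the smallest. Equal medians of all genes instead gave none higher and 1 lower, against 92 and 277 of the 770. The part of these cells in the class I differences was not tested.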

How the data were processed

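Per the labels' protocols, tumours were kept in RNAlater, RNA was extracted with an RNeasy kit, and transcripts were counted by nCounter probes. The deposited values are a normalized signal per gene and tumour on a linear scale with a floor of 1. The authors' normalization steps and each tumour's cartridge were not given in the sources used here. No batch could therefore be tested. In the deposited values the geometric mean of 20 reference genes lies between 389.26 and 389.27 in every tumour. Above 1 and up to 1000, in each tumour 100% of the values were a whole number of equal steps to within 0.02 of a count, so counts were recovered from the deposited signal by dividing by that step (0.826 to 1.33). The lowest values alone give the step in 15 of the 20 tumours. Recovered counts summed to 271793 to 508433 per tumour, and 344 values stand at the floor. No columns were identical, and the closest pair of one group had a chi-square of 4.59 per degree of freedom, so all 20 tumours count as separate samples.

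Groups follow the treatment label. The fit used log2(signal + 1) and limma 3.58.1 in R 4.3.3, with 1 mean per group over all 20 tumours, eBayes without a trend and no filter. The p-values are 2-sided, adjusted by Benjamini-Hochberg over 770 genes, and called at 0.05. They measure the spread between the mice of a group. Ratios within tumours were compared by exact permutation with scipy 1.17.1 and adjusted within each family of ratios. Alternatives were 4 scalings, a pseudocount of 10, dropping the 193 dimmest genes, a replicate block, edgeR 4.0.16 on the recovered counts, fits of only the groups compared, and leaving out each tumour. Of the 4 scalings, equal means of the reference list repeats the deposited scaling and so adds no check. The fits were tested on simulated data. All 10 genes are described. Of other lists (class I route, interferon route, NF-kB route, class II, receptors of class I, leukocyte, epithelial and stromal markers) the text names all of the first and otherwise the 2 largest and 2 smallest differences from isotype tumours, plus Ifng, Irf1, Cd8a, Ptprc, Epcam and Erbb2, while a few items that these rules select are not reported here. The genes and lists were chosen with earlier results of these data known. Promoter sequences are from RefSeq, GRCm38.p6, and all 10 symbols matched its annotation.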

Additional observations from a re-analysis of the deposited data

How the results depend on the processing

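Of the 10 class I genes, equal medians of all genes left 0 called higher against isotype (1 lower), 0 against anti-rHER2 and 0 against isotype ISAC, with 92, 61 and 79 of the 770 panel genes higher. In the same order median-ratio scaling left 4, 1 and 5 (panel 155, 87 and 164), quantile normalization 5, 4 and 4 (panel 130, 80 and 113), and edgeR on the recovered counts 8, 5 and 10 (panel 312, 166 and 278). Quantile normalization (H2-D1, adjusted p = 0.0333) and edgeR (Psmb8, adjusted p = 0.0446) each called 1 of the 10 genes in the interaction. In the same order they called 41 and 58 of the 770 panel genes higher there. Calls that reversed in sign were H2-K1 against isotype (-0.061, equal medians), Tap2 against isotype ISAC (-0.11 with equal medians and -0.073 under quantile normalization) and H2-T23 against isotype ISAC (-0.17, equal medians). H2-T23, not called against isotype as deposited, was called lower there with equal medians (-0.36). The scalings differ by construction in which genes they hold equal, and which of them fits these tumours was not tested.

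A pseudocount of 10 gave 8, 3 and 10 (panel 314, 164 and 287), leaving out the 193 genes of lowest mean 9, 3 and 10 (panel 298, 154 and 268 of 577), and fits of only the groups compared 6, 3 and 10 (panel 288, 121 and 256). Leaving out 1 tumour gave 6 to 9 against isotype, 0 to 4 against anti-rHER2 and 8 to 10 against isotype ISAC. Over the panel the same repeats called 273 to 328, 105 to 168 and 238 to 291 of the 770 higher. None of the 10 genes was called in anti-rHER2 or isotype ISAC against isotype tumours under any of these alternatives. Replicate numbers did not pair the tumours: same-numbered deviations correlated between -0.18 and 0.25 over 30 pairs, and 0 of 20 tumours correlated best with their own number in every other group. With a replicate block 8, 3, 9, 0, 0 and 0 genes were called higher (panel 309, 140, 265, 69, 0 and 57), H2-M3 against isotype being gained (adjusted p = 0.0389).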

Other observations

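Of 40 groups of 5 tumours, 10 genes in 4 treatments, none held a tumour set apart from the other 4 by Dixon's criterion. Ciita, the class II counterpart of Nlrc5, was 0.40 ± 0.14 lower in anti-rHER2 ISAC than in isotype tumours (adjusted p = 0.0313, limma), with Nlrc5 1.08 ± 0.25 higher in the same tumours. Under equal medians of all genes the same difference was -1.11 for Ciita and 0.37 for Nlrc5, where Nlrc5 was not called. Within groups H2-Ab1 varied with the average of the 10 class I genes (r = 0.81 over 20 tumours with group means subtracted, no test).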
